A study of Mus musculus with 2 samples.

Results

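Epithelia that face the outside world coat themselves with mucins, antimicrobial proteins and inhibitors of proteases, and the mammary gland releases many of these into milk. To examine how this layer differed between mammary basal cells grown with and without macrophages, 10 genes were followed among the 49492 genes of the count table: the protease inhibitors and whey acidic protein (WAP) family genes Wfdc18, Slpi and Wfdc2, the mucins Muc1, Muc4 and Muc15, the microbe-binding proteins Dmbt1 and Sftpd, the antibody carrier Pigr and the iron binder Ltf. These genes were chosen on their function and on their read counts in the same libraries, so their differences are a description and carry no test. Basal cells of wild-type (WT) adult female mice had been sorted from the mammary gland and grown in a 3D matrix for 11 to 14 days, either untreated (ctrl, 1 library) or co-cultured with M2-like macrophages (M2, 1 library). According to the study's methods, both cultures received EGF and insulin, transferrin and selenium in the medium, and the macrophages were grown from bone marrow, polarised with IL-4 and IL-13 and kept behind a porous membrane. With 1 library per group there was no replicate check, so the variation between separate cultures is unknown for every value below.

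A mucosal surface is defended in layers. Membrane mucins are long, sugar-coated proteins that hold microbes off the cell surface, and collectins and scavenger receptor cysteine-rich (SRCR) proteins bind microbes and clump them. Polymeric immunoglobulin receptor carries IgA across the epithelium into the secretion, lactoferrin withholds iron from bacteria, and WAP family proteins, small proteins held together by disulfide bonds, include inhibitors that limit damage by neutrophil proteases.

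Depth was 26912610 reads in genes for ctrl and 29413844 for M2. Reads are given as counted, and the log2 difference is that of reads plus 1 divided by library size after TMM scaling, M2 over ctrl, with a 95% counting interval. A gene is called past 2-fold where the difference was at least 2-fold and the interval did not reach 0. In all, 19233 genes had the at least 10 reads needed to be examined. Of the basal markers, Krt5 and Krt14 had 56383 and 81991 reads in ctrl and 83619 and 68968 in M2, and Trp63 had 5445 and 6331. Markers of the sorted cell type were thus detected in both libraries. The libraries are not of basal cells alone: by the paper's flow cytometry such colonies were mostly luminal in both groups, with a larger basal share in the M2 group. Luminal keratins were also abundant, with 29888 and 36348 reads of Krt8. In such mixed cultures, fewer cells of a type and less RNA per cell cannot be told apart.

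All 10 genes had enough reads to be examined: 5 were called higher in M2 (Sftpd, Pigr, Wfdc2, Ltf and Muc1), 4 lower (Dmbt1, Muc15, Wfdc18 and Slpi), and Muc4 was not called. Over all examined genes, 8.45% were called higher and 6.80% lower, and as the 10 genes were chosen on this contrast, nothing is read from their count. In ctrl, the genes called lower were the more abundant ones. Levels, given as reads scaled by exon length and library size (RPKM) so that genes can be compared, stood in ctrl at 1491 for Wfdc18, 495.9 for Slpi, 274 for Muc15 and 25.6 for Dmbt1, whereas the 5 genes called higher ran from 0.165 (Sftpd) to 8.69 (Wfdc2). In M2 these 5 ran from 12.1 (Pigr) to 109 (Wfdc2), and the levels of Wfdc18, Slpi and Muc15 were 455, 218 and 63.4, so Wfdc2 stood above Muc15. Dmbt1, above every gene of the group called higher in ctrl, stood below each of them in M2, at 0.388.

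**Figure D1:**
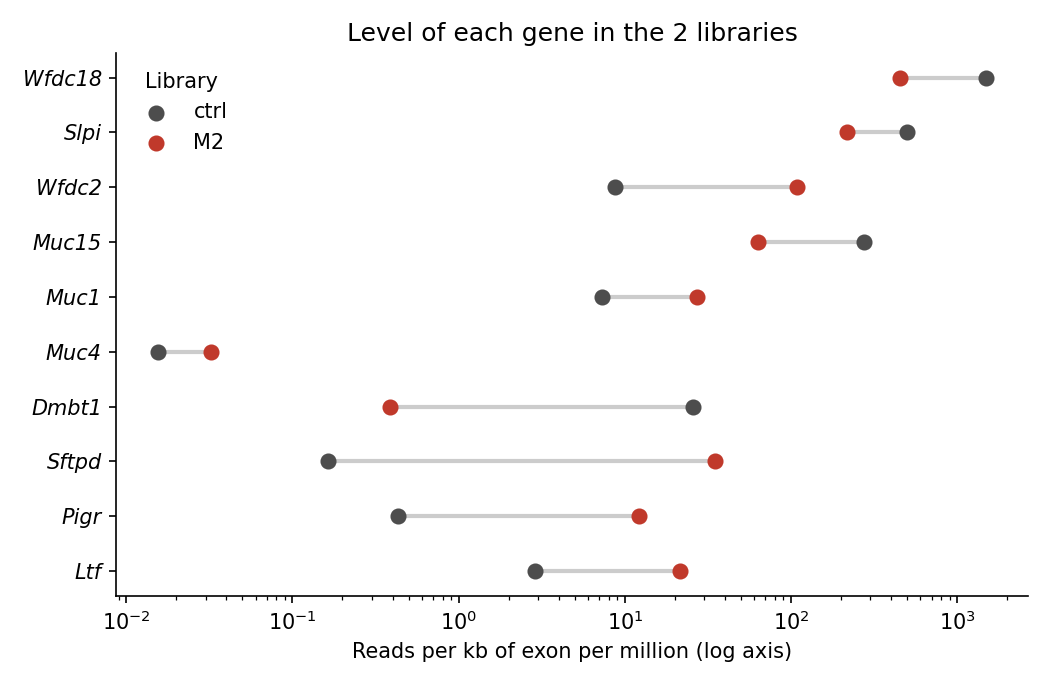
Level of each of the 10 genes in the ctrl library (grey) and the M2 library (red), as reads scaled by exon length and library size (RPKM) on a log axis, with a line joining the libraries. Wfdc18 runs from 1491 in ctrl down to 455 in M2, Sftpd from 0.165 up to above Muc1 at 27.2, and Muc4 stays under 0.04 in both.

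Summed over the 10 genes, 98947 reads were counted in ctrl, 0.368% of the library (95% Wilson interval 0.365 to 0.370), and 40297 in M2, 0.137% (0.136 to 0.138), a log2 difference of -1.37. The sum follows its most abundant genes: Wfdc18, Muc15 and Slpi gave 93.9% of these reads in ctrl and 74.3% in M2. Without them the other 7 genes had 6040 reads in ctrl against 10376 in M2, a log2 difference of 0.71 (95% interval 0.67 to 0.76), the opposite direction.

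**Figure D2:**
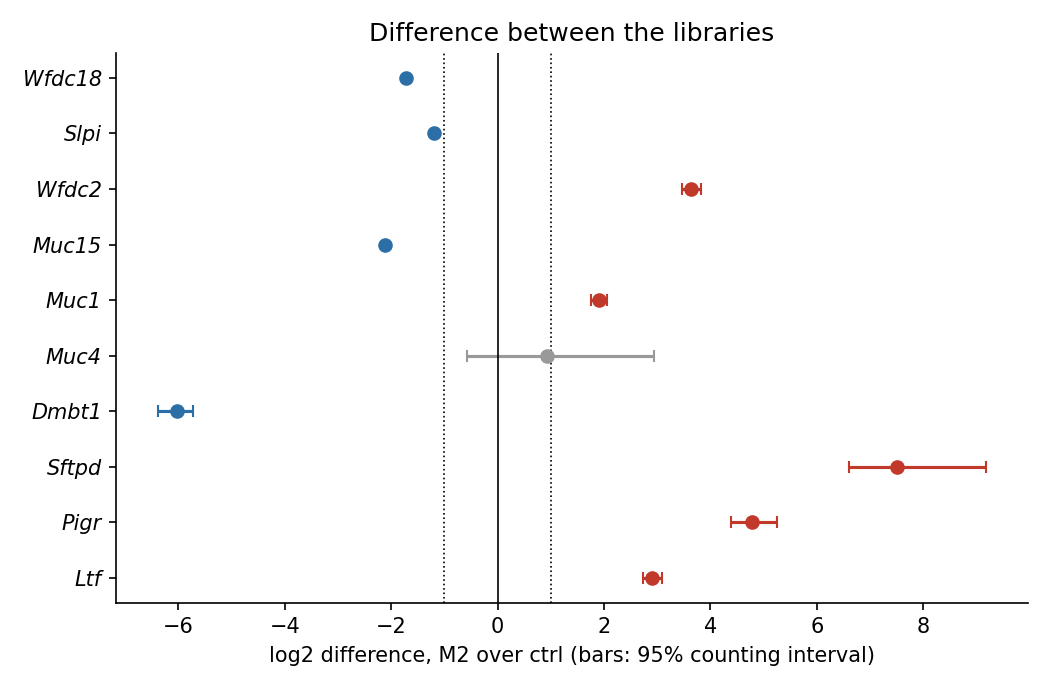
log2 difference of each gene between the M2 and ctrl libraries, with bars for the 95% counting interval and dotted lines at 2-fold. Genes called higher are red, genes called lower blue, and Muc4 (0.93, -0.57 to 2.94) is grey. The bars cover counting error alone, not the spread between cultures.

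The WAP family members split. Wfdc18 (chromosome 11, 83709015 to 83711348, GRCm38, plus strand), a small secreted WAP-domain protein, had 49957 reads in ctrl against 15995 in M2, a 3.28-fold lower level and a log2 difference of -1.71 (95% interval -1.74 to -1.69). It was nevertheless at the 99.9 percentile of levels among examined genes in ctrl and the 99.6 percentile in M2. Slpi (chromosome 2, 164354070 to 164389095, minus strand) encodes secretory leukocyte peptidase inhibitor, which blocks neutrophil elastase and has antimicrobial activity. Its reads were 16075 in ctrl and 7409 in M2, a log2 difference of -1.19 (-1.23 to -1.15), the value closest to the 2-fold threshold among the 9 called genes. Wfdc2 (chromosome 2, 164562413 to 164568510, plus strand), a secreted epithelial protein also known as HE4, went the other way, with 272 reads in ctrl and 3571 in M2. This was a 12.5-fold higher level and a log2 difference of 3.64 (3.47 to 3.83). The level of Wfdc18 was therefore 172 times that of Wfdc2 in ctrl and 4.19 times in M2. The WAP members together gave 67.0% of the reads of the 10 genes in ctrl and 66.9% in M2.

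Slpi and Wfdc2 lie in a cluster of WAP family genes. Their starts, as the table lists them, are 173 kb apart, and 17 listed genes of this family and locus, among them the Kunitz-type inhibitor gene Spint4, lie within 570 kb of chromosome 2. Only 6 of the 17 had at least 10 reads, and 8 had no read in either library. Wfdc2 was the 1 gene called higher, while Slpi, Wfdc3 and Wfdc15b were called lower and Wfdc5 and Wfdc12 were not called. Wfdc3 had 334 reads in ctrl against 84 in M2 (log2 difference -2.05, -2.42 to -1.71), and Wfdc15b had 45 and 2 (-4.01, -7.65 to -2.62). On chromosome 11, Wfdc17, whose start is 5.02 kb from that of Wfdc18, had 22 reads in ctrl against 4 in M2 (-2.27, -4.53 to -0.97), the same direction as its neighbour. A microRNA gene, Mir7678, touches the exons of Slpi by 1 base on the same strand and had 966 reads in ctrl against 494 in M2, and reads of the 2 genes could not be told apart with certainty.

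**Figure D3:**
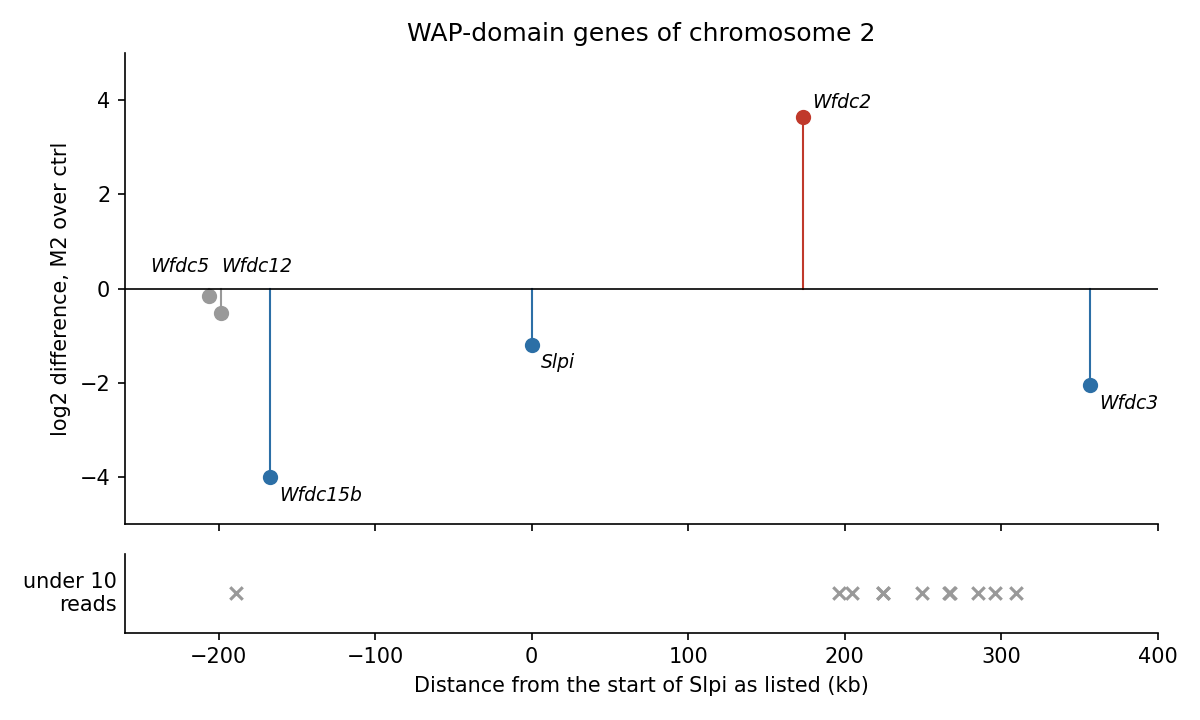
log2 difference, M2 over ctrl, of the WAP family genes of chromosome 2, plotted by the distance in kb of their start from the listed start of Slpi. Wfdc2, 173 kb away, is at 3.64 and is the only one called higher. Slpi, Wfdc15b and Wfdc3 are called lower (blue), Wfdc5 and Wfdc12 are not called (grey), and crosses in the lower strip are the genes with under 10 reads.

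To show the sequence in front of these genes, the 250 bases before the start listed by RefSeq are given for 4 of them. Wfdc18 and Muc1 both hold a TATA box, and Slpi and Ltf both hold a C/EBP match, and in either pair the genes differed in opposite directions. Letters are from RefSeq on GRCm38.p6, in the direction of the gene, and capitals mark matches to a motif. The windows are chr11:83708754-83709003 (plus strand) for Wfdc18, chr3:89228806-89229055 (plus) for Muc1, chr2:164356508-164356757 (minus) for Slpi and chr9:111019042-111019291 (plus) for Ltf. The window of Slpi lies inside the gene as the table lists it, since RefSeq gives a start further downstream.
Wfdc18: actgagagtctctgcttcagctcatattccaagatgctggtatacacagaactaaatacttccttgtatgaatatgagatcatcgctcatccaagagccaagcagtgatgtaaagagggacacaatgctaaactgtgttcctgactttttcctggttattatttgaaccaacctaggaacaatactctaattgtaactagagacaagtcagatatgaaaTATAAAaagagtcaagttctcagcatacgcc
Muc1: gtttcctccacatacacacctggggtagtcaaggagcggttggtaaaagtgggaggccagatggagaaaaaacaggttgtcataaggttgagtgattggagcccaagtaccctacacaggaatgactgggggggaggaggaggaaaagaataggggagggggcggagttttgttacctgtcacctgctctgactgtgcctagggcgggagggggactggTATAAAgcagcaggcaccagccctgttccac
Slpi: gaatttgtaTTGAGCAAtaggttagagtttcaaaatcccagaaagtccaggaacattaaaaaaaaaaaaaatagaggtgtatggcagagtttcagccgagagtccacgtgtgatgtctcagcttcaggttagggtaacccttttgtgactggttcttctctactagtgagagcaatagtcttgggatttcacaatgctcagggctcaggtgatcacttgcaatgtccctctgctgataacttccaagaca
Ltf: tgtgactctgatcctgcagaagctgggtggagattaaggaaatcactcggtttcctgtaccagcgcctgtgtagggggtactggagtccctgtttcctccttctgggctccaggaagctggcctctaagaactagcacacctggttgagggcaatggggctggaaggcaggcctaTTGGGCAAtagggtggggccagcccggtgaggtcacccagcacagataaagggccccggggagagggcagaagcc

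The searched motifs were STAT (TTCNNNGAA), C/EBP (TTGCNNAA), NF-κB, AP-1 (TGANTCA) and the TATA box (TATAAA), on both strands, and these motifs did not overlap in the windows shown. RefSeq windows were found for 7 of the 10 genes, the others being Dmbt1, Sftpd and Muc15. A TATA box stood in 3 of the 7 (Muc1, Muc4 and Wfdc18), against 12.4% of 32817 windows of the same length, and in Muc1 and Wfdc18 it began 31 bases before the start. A C/EBP match stood in 2 (Ltf, 75 bases before the start, and Slpi, 241 bases before it), against 9.57% of windows. The searched letters of STAT, NF-κB and AP-1 were in none of the 7, and are in 7.01%, 0.357% and 6.75% of all windows. Other forms of these sites were not searched, and the NF-κB letters are a strict form that few windows hold. The window of Wfdc2 was the richest in G and C of the 7, at 64.8% with 14 CG steps (it holds exons of other listed transcripts), and that of Wfdc18 the poorest, at 38.4% with 2, where the median of all windows was 52.4%. These matches describe the letters in the windows and say nothing about which factors act there.

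Among the mucins, Muc1 and Muc15 differed in opposite directions. Muc1 (chromosome 3, 89229057 to 89233381, plus strand), the membrane mucin of the apical face of luminal cells, had 467 reads in ctrl against 1841 in M2, a 3.75-fold higher level with a log2 difference of 1.91 (1.76 to 2.06). Muc15 (chromosome 2, 110721340 to 110739527, plus strand), a membrane mucin known from the milk fat globule membrane, had 26875 reads in ctrl against 6517 in M2, a 4.33-fold lower level (-2.11, -2.15 to -2.07). The level of Muc15 was 37.8 times that of Muc1 in ctrl and 2.33 times in M2, so Muc15 still led in both libraries. Muc15 lies within Ano3, a gene of the opposite strand that shares 61 exonic bases with it and had 1267 and 394 reads. The use of strand in counting is not stated, so a part of these reads could belong to either gene.

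Muc4 (chromosome 16, 32735886 to 32782391, plus strand), a very large membrane mucin that binds the receptor ErbB2, had 5 reads in ctrl against 11 in M2. Its log2 difference of 0.93 had an interval from -0.57 to 2.94, and no difference was detectable at this depth. Its exons share 627 bases with those of Muc20 on the opposite strand, which had 217 and 519 reads.

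The largest differences of the 10 genes belonged to Sftpd and Dmbt1, in opposite directions, although their proteins are known to bind each other. Sftpd (chromosome 14, 41172212 to 41185198, minus strand) encodes surfactant protein D, a collectin that recognises sugars on microbes and is best known from the lung. It had 6 reads in ctrl against 1337 in M2, a log2 difference of 7.51 (6.60 to 9.18) that came to 6.86 with a pseudocount of 5 reads, and its level went from the 8.65 percentile of examined genes to the 91.4 percentile. Dmbt1 (chromosome 7, 131032053 to 131121630, plus strand) encodes a large SRCR glycoprotein of mucosal secretions that clumps bacteria. It had 4971 reads in ctrl against 79 in M2, a 65.2-fold lower level (-6.03, -6.38 to -5.72), from the 88.3 percentile to the 16.0 percentile. The level of Dmbt1 was 156 times that of Sftpd in ctrl, and that of Sftpd was 90.1 times that of Dmbt1 in M2.

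Pigr and Ltf, both milk components, were higher in M2. Pigr (chromosome 1, 130826684 to 130852249, plus strand), the receptor that moves polymeric IgA through the epithelium, had 48 reads in ctrl against 1404 in M2, a 27.3-fold higher level (log2 difference 4.77, 4.39 to 5.25). Ltf (chromosome 9, 111019271 to 111042767, plus strand) encodes lactoferrin, made by secretory epithelium and also stored in neutrophil granules. It had 271 reads in ctrl against 2133 in M2, a 7.48-fold higher level (2.90, 2.72 to 3.10). The 8 neutrophil markers summed to 5 reads in ctrl and 32 in M2, with Mpo, Elane, Ngp, Ly6g, Cxcr2 and Csf3r at or under 3 reads in both libraries, whereas Camp had 3 and 14 reads and Mmp8 0 and 17.

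**Figure D4:**
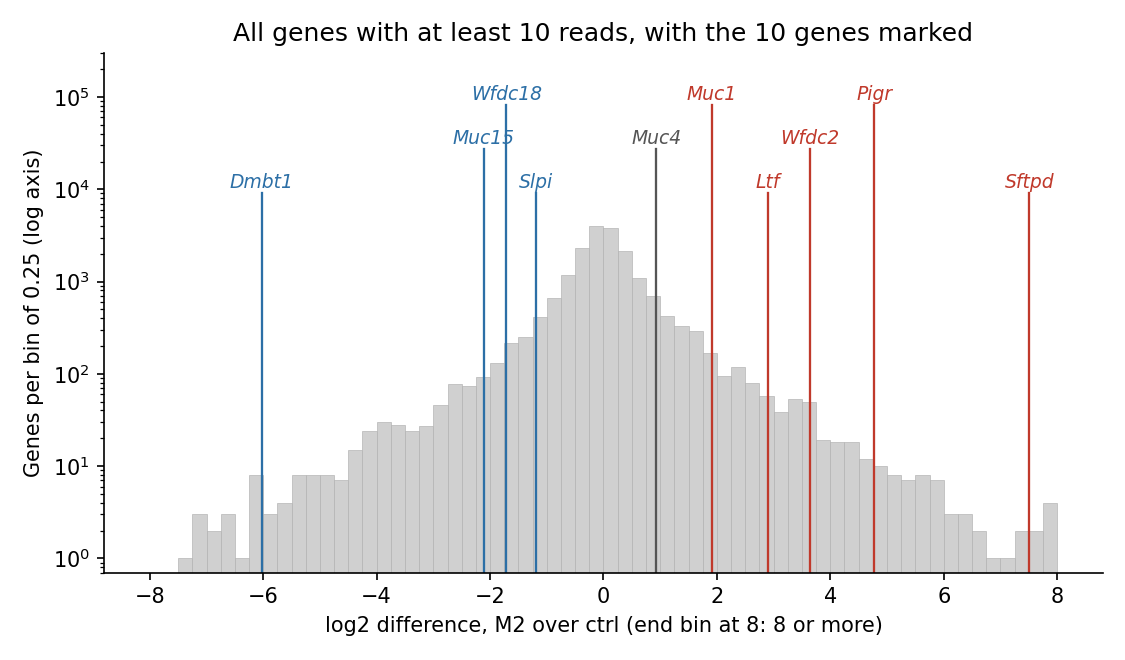
Histogram of the log2 difference, M2 over ctrl, of the 19233 genes with at least 10 reads, in bins of 0.25 with counts on a log axis. Vertical lines mark the 10 genes, blue where called lower, red where called higher and grey for Muc4. Most genes lie near the median of -0.0032, while Dmbt1 (-6.03) and Sftpd (7.51) lie in the sparse tails.

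Cell type markers also differed between the libraries, and their part in these results was not tested. For comparison, 8.45% of all examined genes were called higher and 6.80% lower. Of 10 luminal markers, 5 were called lower (Elf5, Kit, Foxa1, Esr1 and Prlr) and 0 higher, and the list summed to 4025 CPM (reads scaled by library size) in ctrl and 3313 in M2. Among 7 alveolar markers, Csn1s1, Csn3 and Csn2 were called higher and Lalba lower, and Xdh was not called (1364 and 2808 reads). Wap and Glycam1 were at or under 3 reads in both libraries. The list had sums of 284 and 3285 CPM, mostly from Csn3 in ctrl (215) and Csn1s1 in M2 (2600). All 7 squamous markers with enough reads were called lower, led by Dsg1a (1405 and 14 reads), Krt10 (1228 and 75) and Krt4 (679 and 6), Krt13 had too few reads (7 and 1), and the list of 8 summed to 140 in ctrl and 5.41 in M2. The 8 macrophage markers summed to 9.94 and 9.20, nearly all of it from Cd68 (170 reads in ctrl, 165 in M2) and Csf1r (94 and 92), which were detected in both libraries and not called. Adgre1, Tyrobp and Fcer1g, 3 of the 8, were at 0 in both libraries, and Lyz2 was at or under 3 reads. B and plasma cell markers summed to 1.78 and 2.22, mostly from Derl3 (30 and 37 reads), which was not called. Among 8 basal markers, 1 was called lower, Oxtr with 8324 and 1920 reads, and 0 higher.

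To set the 10 genes beside their relatives, 10 further lists were examined, with 185 genes in the table and 114 of them with at least 10 reads. Of these, 35 were called higher, which is 30.7% against 8.45% of all genes, and 11 lower, 9.65% against 6.80%. The median of the 114 genes was 0.25, against -0.0032 for all genes. The lists were chosen with earlier results of these data known, and nothing particular to them is read from the counts.

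Of the other mucins, 8 of 16 had enough reads, with 3 called higher, 2 lower and a median of 0.39. The shares over all genes were 8.45% higher and 6.80% lower. Muc20 (217 and 519 reads, log2 difference 1.18), Muc2 (16 and 39, 1.17, or 0.998 with a pseudocount of 5 reads) and Muc21, listed as Gm9573 (1 and 13, 2.74 with an interval of 0.90 to 9.04), were higher. Muc16, a large membrane mucin of wet surfaces, had 140 reads in ctrl against 1 in M2, a difference of -6.21 (-12.51 to -4.70), or -4.66 with a pseudocount of 5 reads. The gel-forming mucin Muc5ac had 16 and 4 reads (-1.83). Cd164, a small sialomucin, had 6657 and 4108 reads and was not called (-0.77). Among the enzymes that build mucin O-glycans, 3 of 22 were called higher and 0 lower (8.45% and 6.80% of all genes), with a median of 0.13. The 3 were B3gnt3 (63 and 223 reads, 1.74), Galnt14 (3 and 94, 4.50 with an interval of 3.31 to 7.20) and Galnt6 (10 and 86, 2.91). Galnt1, the most read of these enzymes, differed by 0.06.

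The genes listed beside Sftpd and Dmbt1 that had enough reads did not share the size of their differences. These lists are not complete: 5430419D17Rik, a neighbour of Dmbt1 (309 and 1 reads, -7.35), is in neither of them. Only 2 of 11 other collectins and surfactant proteins had enough reads. Sftpc, a lung surfactant gene, had 24 reads in ctrl against 2 in M2 (-3.13, -6.78 to -1.64), and the scavenger collectin Colec12 had 63 and 122 and was not called (0.87). For SRCR-domain genes and close relatives the median was -0.10 (13 genes). Against 8.45% and 6.80% of all genes, 3 were called higher and 0 lower. These were the lysyl oxidase relative Loxl2 (139 and 929 reads, 2.66), Hhipl2 (48 and 169, 1.73) and Cd163, a macrophage receptor (2 and 30, 3.30 with an interval of 1.86 to 6.95). Scara5, the most read of the list, differed by -0.10.

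Around Ltf, some other genes of iron binding were higher in M2, and most of those listed were not. Trf, which encodes transferrin, the closest relative of lactoferrin in the list, had 4038 reads in ctrl against 65294 in M2 (log2 difference 3.95). Lcn2, which encodes a protein that captures bacterial iron carriers, had 12343 and 76343 (2.56), and the haemoglobin scavenger Hp had 1007 and 17485 (4.05). The iron exporter Slc40a1 was lower (2160 and 893, -1.34), and the ferritin chain Fth1 was not called (13050 and 26171, 0.93). Mfi2 (121 and 114, -0.15), Tfrc, Ftl1 and Hpx were not called either. In all, 3 of 9 genes were called higher and 1 lower, with a median of 0.84, where 8.45% and 6.80% of all genes were called.

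The IgA route around Pigr had 15 genes with enough reads, of which 4 were called higher and 0 lower (median 0.36). Of all genes, 8.45% were called higher and 6.80% lower. At a 4-fold threshold 0 of the list were called higher. One of the 4, Fcamr, had 2 and 10 reads (1.81, with an interval of 0.02 to 5.48). Tnfsf13, which encodes the B cell factor APRIL, had 517 and 1178 reads (1.12), the chemokine gene Ccl28, known for drawing IgA-producing cells, had 27 and 74 (1.35), and the interferon-γ receptor chain Ifngr2 had 804 and 1768 (1.07). The IL-4 receptor chain Il4ra, the most read of the list, differed by 0.41.

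The list of other secreted antimicrobials had the highest median of the 10 lists, 2.04 over 17 genes, and 18 of its 35 genes had under 10 reads. It also holds genes of enzymes that are not secreted antimicrobial proteins, such as Nos2 and Duox1. Of the 17, 10 were called higher and 1 lower, against 8.45% and 6.80% of all genes. Those called higher include Camp (3 and 14 reads), Lpo (2 and 15), Defb1 (3 and 26), Bpifb1 (4 and 36) and Pglyrp2 (12 and 55, the median gene). These had under 100 reads over both libraries, a range in which 14.0% of all genes were called higher. Chil1, which encodes a chitinase-like lectin, had 30275 reads in ctrl against 216831 in M2 (2.77). The endotoxin-binding protein gene Lbp had 88 and 1781 reads (4.25), and the peptidoglycan recognition gene Pglyrp1 had 31 and 405 (3.60). Duox1, an oxidase, was lower (195 and 86, -1.24), and Lgals9 was not called (0.26).

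Among helpers of mucus secretion and epithelial ETS factors, 6 of 11 genes were called higher and 3 lower, with a median of 1.39. Of all genes, 8.45% and 6.80% were called. Clca3a2 (564 and 2891 reads, 2.29), Creb3l1 (90 and 455, 2.26) and Clca3a1 (47 and 274, 2.45) were higher. The ETS factors Elf5 (5704 and 2776, -1.11) and Spdef (37 and 8, -2.15) and the disulfide isomerase family gene Agr3 (13 and 1, -2.88 with an interval of -9.18 to -1.03) were lower, and Ehf, the most read ETS factor of the list, differed by -0.17. Foxa2, named after its values were seen, had 0 reads in ctrl against 98 in M2. The 95% interval of its log2 difference began at 4.64 and had no upper limit. With the ctrl count set to 3 reads, its level was 31.1-fold higher. Spdef, Agr3, Foxa2 and Foxa3 (8 and 26 reads) had under 100 reads over both libraries. In that range 14.0% of all genes were called higher and 12.8% lower.

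The list of proteases of mucosal secretions also holds membrane-anchored proteases, such as those of Adam10, Adam17 and Mmp14. It gave 3 called higher of 10 and 0 lower (8.45% and 6.80% of all genes), and a median of 0.28. Klk10 (72 and 285 reads, 1.90), Tmprss11d (4 and 27, 2.42) and Klk11 (4 and 16, 1.70) were higher, and St14, which encodes matriptase, had 10517 and 11127 reads and differed by 0.01, a value whose sign changed with the scaling (-0.05 with total reads). Elane and Ctsg, the neutrophil proteases that Slpi inhibits, had 0 reads in both libraries. For the other WAP-domain genes the median was -0.51 (7 genes). Of these 7, 0 were called higher and 3 lower, against 8.45% and 6.80% of all genes. Wfdc12, the most read of them, had 431 and 317 reads.

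**Figure D5:**
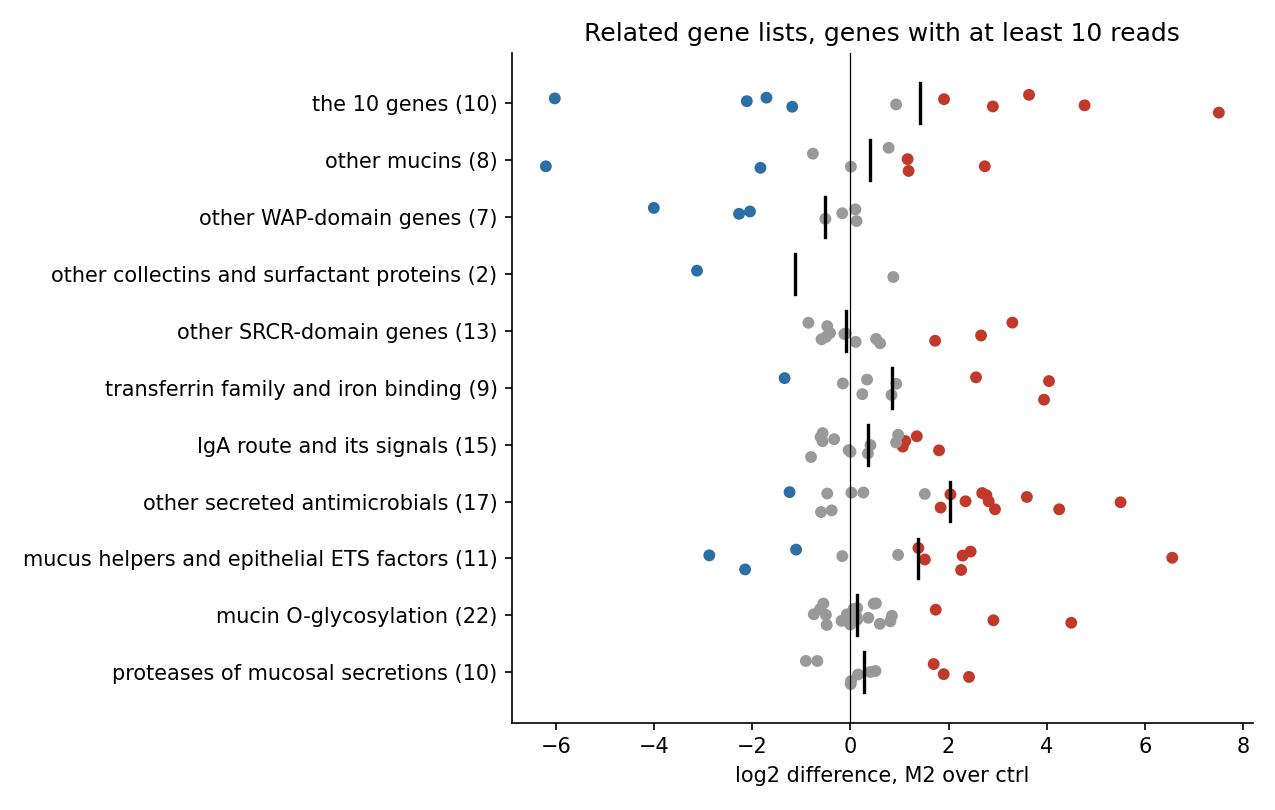
log2 difference, M2 over ctrl, of each gene with at least 10 reads in the 10 genes and in each related list, with the number of genes in brackets and a black bar at the median. Red points are called higher and blue points lower. The medians run from -1.13 for other collectins and surfactant proteins (2 genes) to 2.04 for other secreted antimicrobials.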

How the data were processed

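The deposited table holds raw read counts per gene for 1 ctrl and 1 M2 library, with no normalization by the authors, and gene coordinates. GRCm38 is the build that the submitters' processing notes name, and 9 of the 10 genes have the coordinates of GENCODE M21. The aligner, counter, annotation, strand setting and filters are not given in the sources used here. Genes with at least 10 reads over both libraries were examined, and 26 genes whose names had become dates were never named. Library sizes were scaled by TMM in edgeR 4.0.16 (R 4.3.3), with factors of 1.02 and 0.980. Log2 differences used a pseudocount of 1 read. Levels were computed as RPKM from the TMM-scaled library sizes and the deposited exon lengths.

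For each log2 difference a 95% Clopper-Pearson interval was taken on how the reads divide between libraries, and a Wilson interval for a share of 1 library. Without molecular identifiers in the sources, intervals and floors reflect counting error only. The floor for a gene at 0 was 3 reads, or 0.109 CPM in ctrl and 0.104 in M2. No p-value was computed, since 1 library per group leaves no spread, and the calls compare libraries, not conditions. The functions were tested on simulated data. The members and lists were chosen with earlier results of these data known. By rule, the text names from each list up to 3 genes called in each direction and 1 not called, those with the most reads, and neighbours within 500 kb called with at least 200 reads in 1 library. Any other gene named, such as Foxa1, Esr1 and Csf1r or markers at or near 0, was added after its values were seen. Symbols of 3 listed genes were matched through RefSeq synonyms. The alternatives were 4 scalings (DESeq2 1.42.0 among them), 2 pseudocounts, 2 filters and 2 thresholds.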

Additional observations from a re-analysis of the deposited data

How the results depend on the processing

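Of the 10 genes and the list genes named by rule, 72 had at least 10 reads. Their direction held under the 4 other scalings and both pseudocounts, except that of St14, which was not called. St14 was at 0.01, but at -0.05 with total reads and at -0.03 without mitochondrial and the 100 most read genes. A scaling shifts all genes alike, and total reads moved the median from -0.0032 to -0.062. Only values near 0 could therefore change direction with the scaling. The 2 filters leave a gene's own value unchanged and decide only whether it is examined. A pseudocount of 5 reads moved 14 of the 72 by over 1.5 times, all with few reads in 1 library, among them Sftpd (7.51 to 6.86), Muc16 (-6.21 to -4.66), Mmp8 (4.10 to 2.07, and 5.06 with a pseudocount of 0.5), Wfdc15b (-4.01 to -2.91), Gm9573 (2.74 to 1.52) and Csn2 (5.46 to 4.28). Muc2 then fell below 2-fold, at 0.998. Over these alternatives Dmbt1 ran from -6.09 to -5.96, Sftpd from 6.86 to 7.62, Pigr from 4.66 to 4.79 and Muc4 from 0.61 to 0.99, on the log2 scale. Sftpd and Muc4 could not be examined where at least 1 CPM was required in both libraries. The count of the 10 genes called lower was 4, or 2 (Dmbt1 and Muc15) at a 4-fold threshold. The log2 difference of their summed reads was -1.37, -1.42 with total reads and no TMM factor, and -1.41 with total reads counted without mitochondrial genes and the 100 most read genes. Over all genes, 1626 were called higher and 1308 lower, against 616 and 494 at 4-fold, 797 and 583 with at least 1 CPM in both libraries, and 938 and 679 where the whole interval had to lie beyond 2-fold. For the 10 related lists, 35 and 11 became 22 and 7 at 4-fold and 18 and 4 with at least 1 CPM. These filters and thresholds leave fewer genes by construction. Of 200 counts for single lists, 19 moved by over 1.5 times. Depth limits Muc4 and the many listed genes with under 10 reads. No paired analysis was possible because either group consists of a single library.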

Other observations

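Genes next to the 10 genes were examined within 500 kb. Near Muc15, only 3 of 13 neighbours had enough reads, and all 3 were called lower, against 6.80% of all genes. Bbox1, which encodes the last enzyme of carnitine synthesis, had 759 reads in ctrl and 60 in M2 (log2 difference -3.71, 95% interval -4.13 to -3.35). Fibin had 533 and 169 (-1.72) and Ano3 had 1267 and 394 (-1.75). Ano3 overlaps Muc15, so a part of its reads could belong to Muc15, and nothing is read from so small a count. Beyond Dmbt1, 142 kb from its start, 5430419D17Rik had 309 reads in ctrl and 1 in M2 (-7.35, -13.65 to -5.85), a difference in the direction of Dmbt1, and Tacc2 had 4753 and 2057 (-1.28).

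Around Pigr, Ikbke, which encodes a kinase of innate immune signalling, was higher (336 and 1191 reads, 1.75). In all 7 of 21 neighbours were called higher and 2 lower, but Gm28914 and Gm28913 lie inside Ikbke, so 3 of the 7 are 1 locus, and 5 of the 7 had under 100 reads, a range in which 14.0% of all genes were called higher. Il24, named after its values were seen, lies 60.8 kb from Pigr and had 1 read in ctrl and 45 in M2 (4.45, 95% interval 2.87 to 10.76).

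In the region of Slpi and Wfdc2, Matn4, a matrix protein gene whose start is 16.1 kb from the listed start of Slpi, had 7763 and 1479 reads (-2.46). Rbpjl, 14.0 kb from that listed start, had 281 and 140 (-1.07). Both lie further from the start of Slpi that RefSeq gives. Ube2c, a mitotic ubiquitin enzyme gene (372 and 942, 1.27), and the gelatinase gene Mmp9 (330 and 1104, 1.67) were higher, so both directions occur there. Beside Muc1, Trim46 was higher (142 and 382, 1.35), and Efna3 (541 and 174, -1.70), Gm15998 (226 and 69, -1.77) and Syt11 (384 and 184, -1.13) were lower. Near Ltf, the chemerin receptor gene Ccrl2 had 53 and 202 reads (1.84).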
